A study of Mus musculus with 12 samples.

Results

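The comparison set Mex3a-high Lgr5-low cells of the mouse small intestine against Mex3a-negative Lgr5-low cells. By their labels the first are positive for Mex3a and dim for Lgr5. The second share the dim Lgr5 gate and are labelled negative for Mex3a. The 2 groups were taken by their population labels and hold 2 arrays each, so that 4 of the 12 arrays of the study enter the comparison directly. In the whole study, 6 populations of untreated primary cells were isolated by Mex3a (high, low or negative) and Lgr5 (high or low), each from the 2 biological replicates MR793 and MR820, called replicates 1 and 2 here. RNA came from 2000 cells per sample and was amplified over 22 cycles before hybridisation to Affymetrix arrays, and the deposited values are log2 expression levels of probe sets made by RMA, a method that corrects background, equalises arrays and summarises probes. The labels used here give no strain, age, sex or reporter allele, do not say whether a replicate is 1 animal or a pool, and do not state what reported Mex3a in the sort. The number of arrays limits the precision of every value below.

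The crypts of the small intestine renew the epithelium from dividing stem cells that carry Lgr5, a receptor for Wnt-enhancing R-spondins. Their descendants become absorptive enterocytes or one of several secretory types: mucus-making goblet cells, antimicrobial Paneth cells, hormone-releasing enteroendocrine cells and chemosensory tuft cells. Mex3a encodes an RNA-binding protein that has been studied as a mark of slowly dividing cells within the Lgr5 compartment, and secretory precursors are known to leave the cell cycle as they differentiate.

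The genes that define the gates were read first. Mex3a had levels of 5.71 and 5.57 in the Mex3a-high arrays, against 5.44 and 5.60 in the Mex3a-negative arrays, all below the median level of all genes in Mex3a-negative cells, 6.48. These ranges overlapped and the difference was 0.12 ± 0.12 (log2, Mex3a-high minus Mex3a-negative, ± the moderated SE of limma in the fit without a block, adjusted p = 0.704). The arrays therefore did not show the Mex3a gate, and which population is Mex3a-high rests on the labels. Lgr5 had levels of 8.05 and 7.61 in Mex3a-high cells and 6.37 and 7.25 in Mex3a-negative cells. Both Mex3a-high arrays lay above both Mex3a-negative arrays for Lgr5, and the difference of 1.02 ± 0.26 did not pass the test (adjusted p = 0.0614). It passed once the biological replicate was added to the model as a block (adjusted p = 0.0208).

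One array of another population, Mex3a-high Lgr5-high of replicate 1, stood apart, with correlations of 0.896 to 0.916 to the other arrays against 0.971 to 0.996 among the other 11, and it was left out of the fit. The 2 Mex3a-high Lgr5-low arrays correlated at 0.992 with each other and the 2 Mex3a-negative arrays at 0.988. The labels also give the array strip. Both replicate 1 arrays of the comparison and the Mex3a-negative array of replicate 2 were on strip 3, while the Mex3a-high array of replicate 2 was on strip 2, so the replicate 1 difference is a within-strip value and the replicate 2 difference spans strips. Enterocyte genes differed between the Mex3a-negative arrays themselves: the summed level of 26 such genes was 14.80 and 14.91 (log2) in the Mex3a-high arrays, between the 15.44 and 13.98 of Mex3a-negative replicates 1 and 2. Immediate early and stress genes followed the replicate, with summed levels of 14.89 and 13.81 in Mex3a-high replicates 1 and 2 and 14.85 and 13.94 in Mex3a-negative replicates 1 and 2.

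Of 17097 genes, limma called 905 at a Benjamini-Hochberg adjusted p under 0.05, which is 5.29% of genes tested. Of these, 694 genes (4.06%) were higher in Mex3a-high cells and 211 (1.23%) were lower. The 2 directions differed in size. The genes that rose had a median difference of 1.03 (log2), 357 of them changed by more than 2-fold and 80 by more than 8-fold, while the genes that fell had a median of -0.59 and 1 of them, Cep55, changed by more than 2-fold. The genes that rose had a median level of 6.13 in Mex3a-negative cells, against 6.48 over all genes. Those that fell were mid to high in both populations (median 8.12 in Mex3a-high cells and 8.75 in Mex3a-negative cells). All 905 had the same sign in both replicates and arrays that did not overlap between the groups. Over all genes, both Mex3a-high arrays lay above both Mex3a-negative arrays in 21.1% of genes and below them in 24.2%, and the median difference of all genes was -0.01. The difference lay above 0 in 46.3% of all genes.

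The number of calls moved with the model. Adding the biological replicate as a block gave 2033 calls (1134 higher, 899 lower). With all 12 arrays, including the one that stood apart, 295 were called (293 higher, 2 lower). A fit of the strip 3 arrays alone, which keep 1 Mex3a-high array, called 275 genes, all higher in Mex3a-high cells. Without the Mex3a-high array of replicate 1, 484 genes were called (434 higher, 50 lower), and without that of replicate 2, 595 (566 higher, 29 lower). With strip as a block there were 762 (661 higher, 101 lower). In the block fit, the fit of all 12 arrays and the fit of strip 3, 21, 21 and 20 of 23 tuft cell genes were called higher, and 23, 0 and 0 of 28 mitosis genes were called lower.

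**Figure D1:**
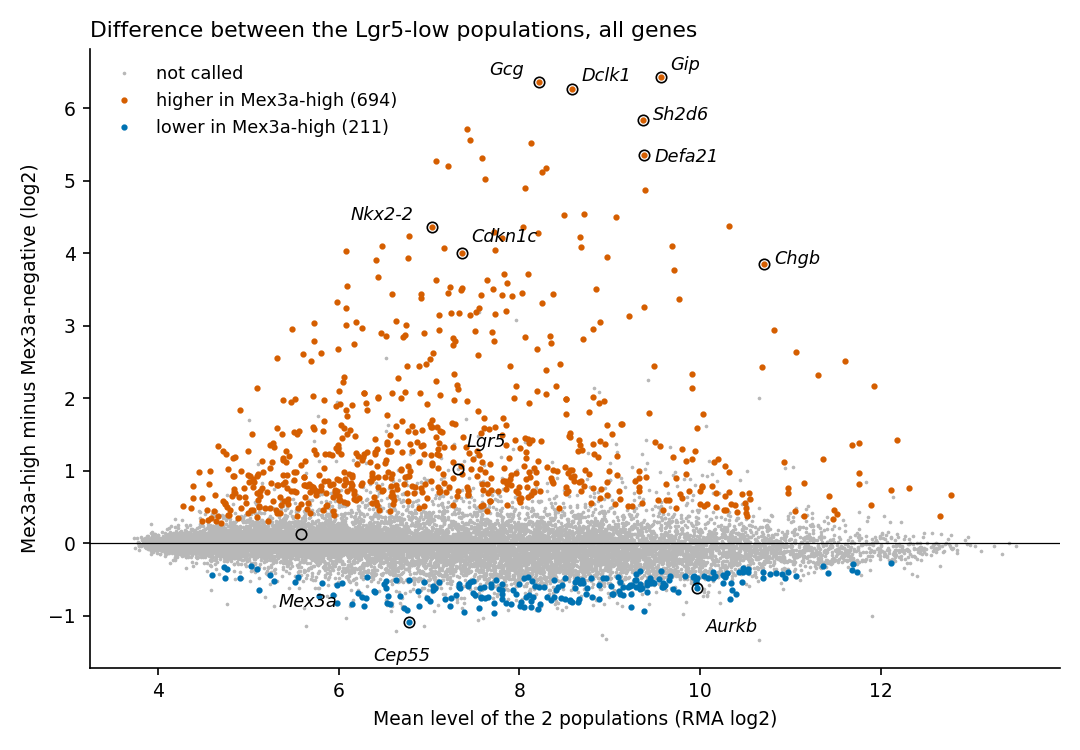
Difference between Mex3a-high and Mex3a-negative Lgr5-low cells (y axis, log2) against the mean level of both populations (x axis, RMA log2) for 17097 genes. Orange points are the 694 genes called higher, blue points the 211 called lower and grey points the rest; circles mark named genes. The higher genes reach 6.43 (Gip), the lower genes -1.08 (Cep55), and Mex3a and Lgr5 are not among those called.

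Of the gene lists examined, the tuft cell list had the largest share of called members. Of its 23 measured genes 21 rose in Mex3a-high cells and 0 fell, with a list median of 3.31 against -0.01 over all genes. Dclk1, a kinase gene long used to mark tuft cells, had levels of 11.64 and 11.81 in Mex3a-high cells, against 5.27 and 5.63 in Mex3a-negative cells. The difference of 6.27 ± 0.30 (adjusted p = 7.81e-06) was 77-fold on the RMA scale, and the arrays of a population lay at most 0.36 apart. Whether more of the cells were of a type or each such cell held more RNA cannot be told apart in these bulk samples.

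The other tuft cell genes covered structure, signalling and surface molecules. Avil, which encodes the actin bundler advillin of the apical brush, had 11.78 and 11.87 in Mex3a-high cells and 7.06 and 6.83 in Mex3a-negative cells. Sh2d6, an adaptor gene, had 12.40 and 12.18 and Siglecf, a sialic acid binding lectin gene, 10.42 and 10.14 in Mex3a-high cells, against 6.31 and 6.57 for Sh2d6 and 4.44 and 4.67 for Siglecf in Mex3a-negative cells. The Mex3a-high arrays of each gene lay within 0.3 log2 of each other and more than 4 log2 above the Mex3a-negative arrays. Fyb, an adaptor also used by T cells, differed by 4.24 ± 0.23 (adjusted p = 1.04e-05), and Bmx, a Tec family kinase gene, by 3.05 ± 0.16 (adjusted p = 9.41e-06). Il17rb, a subunit of the interleukin 25 receptor, differed by 3.31 ± 0.18 and Kctd12, an auxiliary subunit of GABA-B receptors, by 5.28 ± 0.28. The lineage factor gene Spib had 10.24 and 10.26 in Mex3a-high cells and 4.83 and 5.03 in Mex3a-negative cells. Pou2f3, the factor that tuft cells require, and Il25, the cytokine by which they alert lymphoid cells, were picked for these roles after their values were seen. Pou2f3 differed by 4.08 ± 0.33 and Il25, which averaged 6.29 in Mex3a-high cells and 4.78 in Mex3a-negative cells, by 1.51 ± 0.10. The 2 members that did not pass, named for that reason, were Sucnr1, the succinate receptor (0.34 ± 0.12, adjusted p = 0.147), and the cytokine gene Tslp (-0.01 ± 0.08). The tuft cell count was 21 or 22 with any of the 11 arrays left out.

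Tuft cells signal through the cascade that taste cells use, and that list split. Of 13 members, 7 rose and 6 stayed within 0.12 of 0. This split is that of the probe sets used here. With the mean of a gene's probe sets, or the probe set of largest interquartile range, 8 were called higher and 0 lower. With all 12 arrays 6 were called higher. Trpm5, the cation channel at the end of the cascade, averaged 10.89 in Mex3a-high cells, whose arrays lay 0.22 apart, and 5.71 in Mex3a-negative cells, and differed by 5.18 ± 0.32. Plcb2, the phospholipase of taste cells, differed by 1.39 ± 0.12, Plcg2, another phospholipase, by 3.13 ± 0.18, and Itpr2, a calcium release channel, by 2.84 ± 0.20 (adjusted p = 4.99e-05). A dim probe set of Itpr2 differed by 0.21 and was not called, while its others were called higher. The G protein regulator Rgs13 (3.91 ± 0.25) and the subunit Gnai2 (0.82 ± 0.08) rose too. The members that did not rise included the taste receptor subunits Tas1r1 and Tas1r3, the channel gene Itpr3 and the G protein subunits Gng13 and Gnb3, named here after their values were seen, with differences of -0.12 to 0.10.

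Enzymes of leukotriene and prostaglandin D synthesis rose within a list that otherwise did not. In the eicosanoid list of 14 genes 4 rose, 1 fell, and the list median was 0.06. Alox5ap, the protein that presents arachidonic acid to 5-lipoxygenase, had 10.99 and 10.80 in Mex3a-high cells and 5.33 and 5.40 in Mex3a-negative cells. The lipoxygenase gene Alox5 differed by 3.38 ± 0.28, the leukotriene C4 synthase gene Ltc4s by 2.85 ± 0.25 and the prostaglandin D synthase gene Hpgds by 2.80 ± 0.28. Lta4h, which takes leukotriene A4 to leukotriene B4 and is widely expressed, fell (-0.58 ± 0.09, adjusted p = 0.00631), though its other probe set differed by 0.03. Both Mex3a-high levels of Lta4h, 9.35 and 9.29, lay below the Mex3a-negative levels, 9.95 and 9.85. With the replicate block 2 members fell, the other being Ptges2 (-0.47 ± 0.17, adjusted p = 0.0247), a prostaglandin E synthase gene.

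Since the tuft cell genes moved together, their promoters were searched for the PU box GAGGAA, a core that Ets factors of the Spi family bind. RefSeq promoter windows, taken as the 250 bases before the annotated start in GRCm38.p6, were available for 18 of the 23 measured members, and 10 of the 18 (55.6%) held GAGGAA or its reverse TTCCTC, against 26.0% of 13605 genes of the fit with a window. The octamer ATGCAAAT, which POU factors bind, was in 2 of the 18 (11.1%) against 1.60%. Siglecf and Avil are shown as tuft cell genes with 1 PU box each, in capitals, read 5′ to 3′ on the strand of the gene (Siglecf at chr7:43351091-43351340, plus strand; Avil at chr10:127000459-127000708, plus strand).
Siglecf: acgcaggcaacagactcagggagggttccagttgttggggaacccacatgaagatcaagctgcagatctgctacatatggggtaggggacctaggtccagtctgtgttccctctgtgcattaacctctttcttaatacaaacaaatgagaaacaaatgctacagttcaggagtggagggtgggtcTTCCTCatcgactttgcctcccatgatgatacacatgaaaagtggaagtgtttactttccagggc
Avil: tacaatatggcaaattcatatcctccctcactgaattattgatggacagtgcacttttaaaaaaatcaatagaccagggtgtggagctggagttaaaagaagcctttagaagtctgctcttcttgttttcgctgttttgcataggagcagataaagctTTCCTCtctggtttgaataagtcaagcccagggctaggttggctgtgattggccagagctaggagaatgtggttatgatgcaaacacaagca
In both windows the match is the reverse form. In all, 5 motifs were searched on both strands in 6 lists, each motif by itself so that matches may overlap, and none of these shares was tested; a match is a description of letters and not a binding site.

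Transcription factor genes of the enteroendocrine lineage rose as a group. Of 17 measured members, 14 were higher and 0 lower, with a median of 1.63. Nkx2-2, a homeodomain factor of hormone cells, had levels of 9.16 and 9.26 in Mex3a-high cells, against 4.81 and 4.90 in Mex3a-negative cells. Its difference of 4.36 ± 0.10 had an adjusted p of 1.80e-07, and the 2 arrays of each population lay within 0.1 of each other. Insm1, a zinc finger factor, differed by 4.29 ± 0.20, Isl1, a LIM homeodomain factor, by 4.04 ± 0.30, and Neurod1, a basic helix-loop-helix factor, by 3.43 ± 0.15. Pax4 (1.96 ± 0.19) and St18 (2.95 ± 0.19) rose as well, each with an adjusted p of at most 3.70e-04.

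Neurog3, the transient factor that starts the lineage, was called with a wider spread and was named for that role after its values were seen. It had 8.48 and 9.66 in Mex3a-high cells and 7.13 and 7.15 in Mex3a-negative cells. The difference was 1.93 ± 0.34 (adjusted p = 0.0106). The Mex3a-high array of replicate 2 was 1.18 above that of replicate 1. Of the 14 called factors, 4 were higher in replicate 1 of the Mex3a-high population, and the extremes were Pax6 (0.67 higher in replicate 1) and Neurog3.

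Hormone genes showed the largest single differences. Of 19 measured genes for hormones, amine enzymes and transporters, 11 rose and 0 fell, with a median of 2.38. Gip, the incretin of K cells, had 13.05 and 12.52 in Mex3a-high cells and 6.62 and 6.08 in Mex3a-negative cells. The difference was 6.43 ± 0.43 (adjusted p = 3.99e-05). The 2 populations were separated by more than 5 log2 at their nearest arrays. Gcg, the precursor of glucagon-like peptides in L cells, had 11.56 and 11.24 in Mex3a-high cells and 5.04 and 5.04 in Mex3a-negative cells (6.36 ± 1.41, adjusted p = 0.0329). Its SE is larger than that of Gip although its Mex3a-high and Mex3a-negative arrays were close, since all populations enter the fit: the 2 Mex3a-low Lgr5-low arrays had Gcg levels of 10.69 and 4.82. Sst, the somatostatin of D cells, differed by 4.54 ± 0.34 and Nts, neurotensin, by 2.78 ± 0.27. Tph1, the enzyme that commits tryptophan to serotonin in enterochromaffin cells, differed by 4.52 ± 0.44, Tac1, the substance P precursor, by 5.21 ± 0.52, and Slc18a1, the vesicular amine transporter, by 3.24 ± 0.36. Dimmer second probe sets of Tac1 and Slc18a1 differed by 0.10 and 0.29 and were not called. Ghrl, Sct, Cck and Pyy, for ghrelin, secretin, cholecystokinin and peptide YY, rose too and are named after their values were seen, by 4.10 ± 0.48, 2.38 ± 0.38, 3.71 ± 0.68 and 0.83 ± 0.17.

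The other 8 hormone list members were not called. Insl5 had 4.98 and 4.93 in Mex3a-high cells and 4.96 and 4.86 in Mex3a-negative cells, and Nmu, Penk, Gal, Adm and Fgf15 had differences of -0.08 to 0.25. Ucn3, urocortin 3, had 7.91 and 4.95 in Mex3a-high cells and 5.09 and 4.95 in Mex3a-negative cells. Only the Mex3a-high array of replicate 1 was high, and the difference did not pass the test (1.42 ± 0.75, adjusted p = 0.39). The 11 called hormone genes were all higher in replicate 1 than in replicate 2 of the Mex3a-high population, by a median of 0.48 and at most 1.39 (Sct). Ddc, which makes serotonin and dopamine from their precursors, was called with the replicate block (0.93 ± 0.29, adjusted p = 0.00211) and not without it (adjusted p = 0.123). The genes of this paragraph were picked from the list after their values were seen.

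The E-box form CAGATG, which basic helix-loop-helix factors such as Neurod1 bind, was in 6 of 16 hormone list promoters with a window (37.5%) against 13.5% of all genes with a window, and in 2 of 14 factor promoters (14.3%) and 1 of 12 granin and processing promoters (8.33%). It was also in 4 of 18 tuft cell promoters (22.2%), 4 of 23 mitosis promoters (17.4%) and 2 of 24 DNA replication promoters (8.33%). The windows of Gcg, which holds 2 matches, and Cck, which holds 1, show the motif in capitals (Gcg at chr2:62483654-62483903, minus strand; Cck at chr9:121495695-121495944, minus strand; GRCm38.p6, RefSeq, 5′ to 3′ on the gene's strand).
Gcg: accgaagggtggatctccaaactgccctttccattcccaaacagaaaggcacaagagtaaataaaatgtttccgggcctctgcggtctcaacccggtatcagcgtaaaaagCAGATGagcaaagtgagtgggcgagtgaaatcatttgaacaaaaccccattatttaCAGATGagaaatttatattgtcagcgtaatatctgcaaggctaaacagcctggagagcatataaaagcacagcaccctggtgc
Cck: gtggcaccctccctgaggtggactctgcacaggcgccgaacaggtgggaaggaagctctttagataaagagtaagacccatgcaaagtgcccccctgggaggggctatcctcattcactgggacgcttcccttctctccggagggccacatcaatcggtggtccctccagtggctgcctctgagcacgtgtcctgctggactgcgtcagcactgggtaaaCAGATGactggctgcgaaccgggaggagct
Both genes rose by more than 3 log2, as given above.

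Genes for proteins that mature and store hormones were called in part. In the granin and prohormone processing list 9 of 14 members rose, 0 fell, all 14 differences were above 0 and the median was 2.48. Cpe, the carboxypeptidase that trims prohormones, had 10.37 and 10.10 in Mex3a-high cells and 4.88 and 4.46 in Mex3a-negative cells (difference 5.57 ± 0.58, adjusted p = 5.09e-04). The convertase gene Pcsk1 differed by 3.21 ± 0.36, the amidating enzyme gene Pam by 3.01 ± 0.24, and Ptprn2, a membrane protein of the granules, by 4.09 ± 0.43. Scg2, a secretogranin gene, differed by 3.02 ± 0.38. Chga and Chgb, the chromogranins that pack granules, were named after their values were seen. Chga had 11.62 and 10.26 in Mex3a-high cells and 7.49 and 6.49 in Mex3a-negative cells, and Chgb 12.65 and 12.61 in Mex3a-high cells and 9.37 and 8.19 in Mex3a-negative cells. Of the 5 members that were not called, Resp18 (1.76 ± 0.44, adjusted p = 0.0547) and Scg5 (1.95 ± 0.57, adjusted p = 0.0967) were called with the replicate block, at adjusted p of 0.00624 and 0.0141, while Pcsk1n, Vgf and Ptprn had differences of 0.39 to 0.68. The count was 6 without the Mex3a-high array of replicate 1 and 12 without that of replicate 2.

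Of 18 genes of regulated exocytosis, 11 rose and 0 fell, with a median of 0.99. Syt13, an atypical synaptotagmin, had 7.39 and 7.48 in Mex3a-high cells and 5.52 and 5.35 in Mex3a-negative cells (2.00 ± 0.10, adjusted p = 9.80e-06). Snap25, a plasma membrane SNARE, had 8.55 and 7.19 in Mex3a-high cells and 4.34 and 4.30 in Mex3a-negative cells, with replicate 1 the higher of the Mex3a-high arrays by 1.35. The vesicle SNARE gene Vamp2 differed by 0.99 ± 0.14, the priming factor gene Cadps by 0.99 ± 0.11, the Rab3 effector gene Rph3al by 1.27 ± 0.17, and the vesicle membrane protein gene Syp by 2.86 ± 0.22, although a dim second probe set of Syp differed by -0.01. That of Rph3al differed by 0.64 and was not called. The exocytosis count was 6 with all 12 arrays and 7 on strip 3 alone.

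Channels and nutrient receptors moved in part. Of 15 ion channel genes 7 rose and 0 fell. Cacna2d1, an auxiliary subunit of voltage-gated calcium channels, had 8.44 and 8.18 in Mex3a-high cells and 4.92 and 4.83 in Mex3a-negative cells. Cacna1h, a T-type calcium channel, differed by 2.44 ± 0.29 and Cacna1a, a P/Q-type channel, by 0.89 ± 0.15. The other probe sets of Cacna1a differed by 0.71, 2.48 and 2.73. The potassium channel Kcnma1 differed by 1.49 ± 0.14 and Kcnj11, the pore of the ATP-sensitive channel, by 1.05 ± 0.12 (adjusted p = 8.59e-04). A dimmer second probe set of Kcnma1 differed by 0.03 and was not called. Trpa1, an irritant-sensing channel of enterochromaffin cells, was picked after its values were seen and had 8.96 and 6.64 in Mex3a-high cells, against 5.43 and 5.06 in Mex3a-negative cells. Its difference of 2.55 ± 0.77 was called with the replicate block (adjusted p = 0.0106) and not without (adjusted p = 0.105). The replicate block called 10 of the 15 channel genes, and 3 were called with all 12 arrays and on strip 3 alone. Of 9 nutrient-sensing receptors 2 rose, the short-chain fatty acid receptor Ffar2 (2.05 ± 0.25) and the somatostatin receptor Sstr1 (0.91 ± 0.18), and the block added the long-chain fatty acid receptor Ffar4 (0.57 ± 0.19, adjusted p = 0.0347, 0.146 without it). A second probe set of Ffar2 differed by 3.39.

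**Figure D2:**
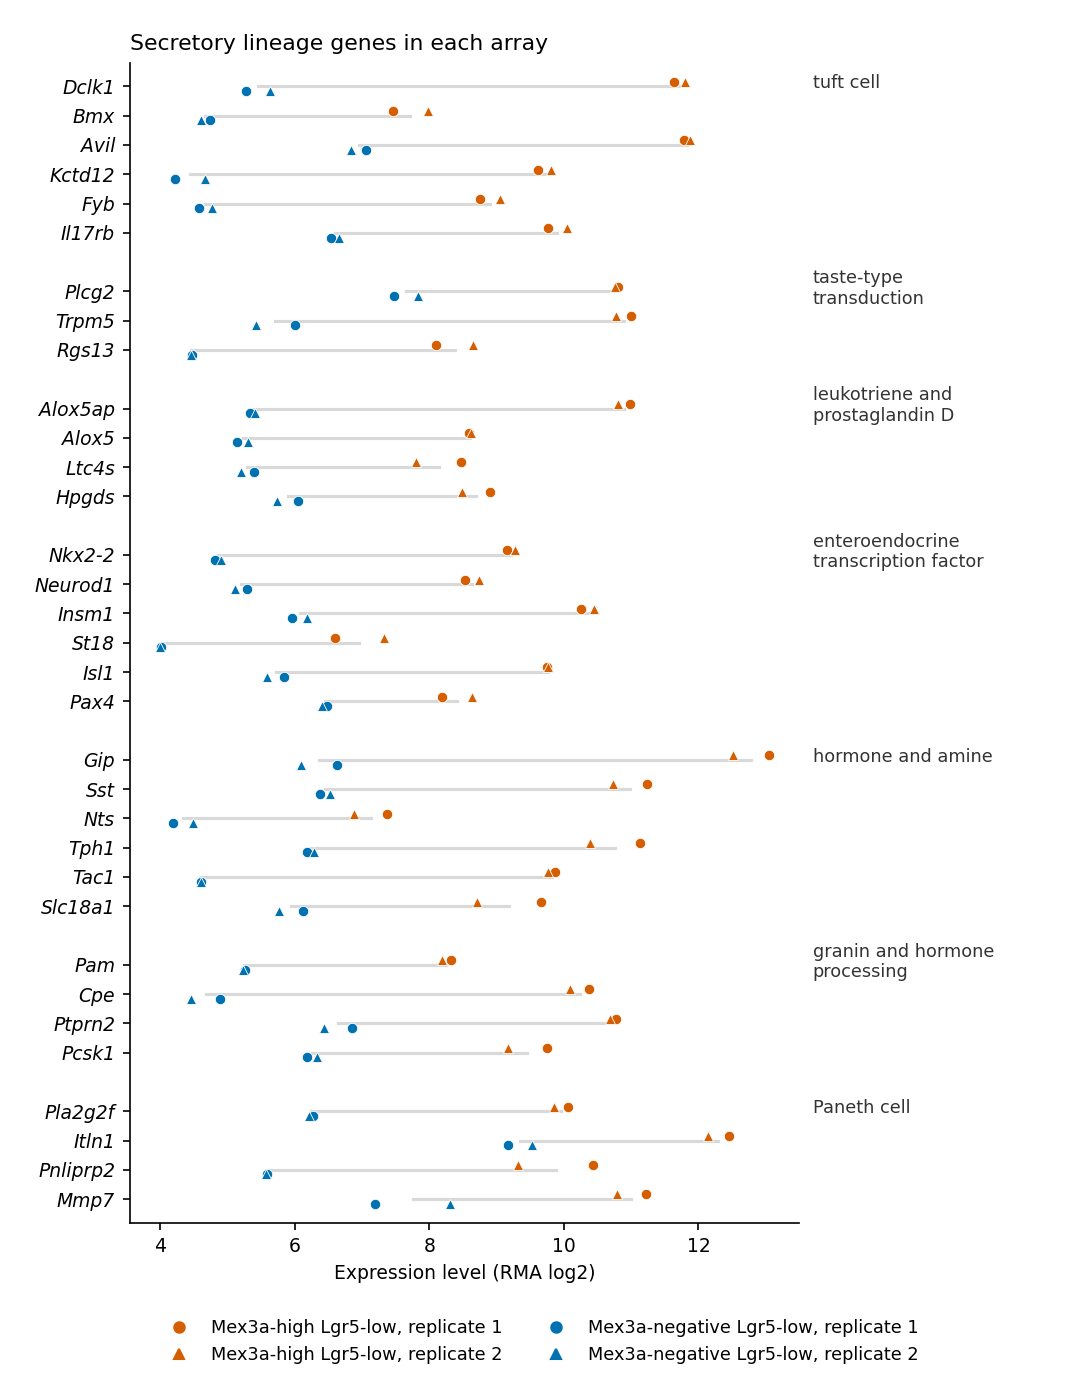
Level in each array (x axis, RMA log2) of the members with the smallest p in 7 secretory gene lists. Orange points are Mex3a-high and blue points Mex3a-negative Lgr5-low cells, circles replicate 1 and triangles replicate 2, and grey lines join the means. The genes were chosen by p in this comparison, and in none drawn do the 2 populations overlap. Over all genes both Mex3a-high arrays lay above both Mex3a-negative arrays in 21.1%. Gip reaches 13.05 and 12.52 in Mex3a-high cells, against 6.62 and 6.08 in Mex3a-negative cells.

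Of 24 Paneth cell list members, 11 had a probe set annotated to 1 gene symbol, and most defensin genes of the list did not. Among the 11, 7 rose and 1 fell, with a median of 2.95. Itln1, a lectin that binds microbial sugars, had 12.45 and 12.15 in Mex3a-high cells and 9.18 and 9.52 in Mex3a-negative cells (2.95 ± 0.14, adjusted p = 7.81e-06). Mmp7, the protease that activates defensins, had 11.22 and 10.78 in Mex3a-high cells and 7.19 and 8.31 in Mex3a-negative cells, and Pla2g2f, a secreted phospholipase, 10.07 and 9.85 in Mex3a-high cells and 6.27 and 6.22 in Mex3a-negative cells. Clps and Pnliprp2, a colipase and a lipase-related protein, differed by 3.77 ± 0.43 and 4.30 ± 0.41. Defa21, a defensin, had 12.29 and 11.83 in Mex3a-high cells and 5.48 and 7.92 in Mex3a-negative cells, and the Mex3a-negative arrays lay 2.44 apart. Defa3 fell by 0.76 (adjusted p = 0.0153). Defensin genes are near-identical copies and probes can be shared between them, so single defensin values are uncertain. Lyz1, the Paneth cell lysozyme, differed by 0.56 ± 0.13, named after its values were seen, as were Nupr1 (2.25 ± 0.65, adjusted p = 0.0907, 6.73e-04 with the replicate block) and Mptx1 (1.24 ± 0.80), which were not called.

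Goblet cell genes did not move as a group. Of 18 members 1 rose, the chemokine gene Ccl6 (1.16 ± 0.28, adjusted p = 0.047), 0 fell and the median was 0.00. The share of all genes called higher was 4.06%. Ccl6 was not called with all 12 arrays, without the mean-variance trend, with robust eBayes, with strip as a block or without either Mex3a-high array, fits in which the list had 0 calls. Without the Mex3a-negative array of replicate 1, 2 goblet cell genes were called higher and 15 of 18 lay above 0. Clca1, a secreted regulator of mucus, had 9.65 and 10.33 in Mex3a-high cells and 12.11 and 10.54 in Mex3a-negative cells, and Fcgbp, a mucus protein, 11.76 and 12.41 in Mex3a-high cells and 12.90 and 11.96 in Mex3a-negative cells. The Fcgbp arrays overlapped. The Clca1 arrays did not, and the difference of -1.33 ± 0.73 was not called (adjusted p = 0.404). Both genes were chosen after their values were seen. With the replicate block 3 goblet cell genes were called higher, Ccl9 (0.77 ± 0.23, adjusted p = 0.0179), a chemokine gene, and Spink4 (0.64 ± 0.19, adjusted p = 0.00185), a protease inhibitor gene, beside Ccl6.

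Among early secretory factors, 3 of 14 rose and 0 fell, with a median of 0.50. Dll4, a Notch ligand, had 7.74 and 8.06 in Mex3a-high cells and 6.06 and 6.65 in Mex3a-negative cells (1.54 ± 0.22, adjusted p = 0.00373). Bhlha15, a factor of secretory cells, differed by 1.23 ± 0.26 and Sox4 by 0.89 ± 0.22 (adjusted p = 0.0484). A second probe set of Bhlha15 (0.86) was not called. Of the other Sox4 probe sets that at 1.00 was called, and those at 0.35, 0.98 and 1.07 were not. The count was 1 with all 12 arrays, 0 on strip 3 alone, and 1 to 4 with 1 array left out, with 1 without either Mex3a-high array. The replicate block called 7, among them Spdef, a factor of goblet and Paneth cells (0.50 ± 0.16, adjusted p = 0.0408, 0.134 without the block), and Foxa3, a factor of goblet cells (0.89 ± 0.31, adjusted p = 0.00108, 0.164 without the block). Atoh1, the master factor of all secretory cells, overlapped between the populations, with 7.98 and 8.94 in Mex3a-high cells and 8.39 and 7.96 in Mex3a-negative cells, and was named for its role after its values were seen. In the Notch pathway list 2 of 19 rose, the glycosyltransferase gene Lfng (0.67 ± 0.13) and Dtx3 (1.08 ± 0.23), a ligase related to Deltex, and 1 fell, the Notch target Nrarp (-0.52 ± 0.11, adjusted p = 0.0238). Second probe sets of Lfng (0.61) and Nrarp (-0.73) were not called. Hes1, the repressor that Notch induces, had a difference of -0.70 ± 0.44 that was called with the replicate block (adjusted p = 0.0163) and not without it (adjusted p = 0.489), and was picked after its values were seen. That fit called 3 Notch list members lower, and with all 12 arrays 0 were called in either direction.

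Stem cell genes showed 1 call. Of 22 crypt base stem cell genes Sox9 rose, against 4.06% of all genes, 0 fell and the median was 0.11. Sox9, a factor of stem, Paneth and tuft cells, had 10.24 and 10.13 in Mex3a-high cells and 9.15 and 9.43 in Mex3a-negative cells (0.90 ± 0.11, adjusted p = 0.00158). Its other probe sets differed by 0.83, which was called, and by 0.08, which was not. Msi1, Ephb3 and Lgr4 had differences of 1.23 ± 0.33, 0.60 ± 0.16 and -0.50 ± 0.13 and adjusted p of 0.073, 0.0717 and 0.0714, against 0.00393, 0.0132 and 0.0062 with the replicate block. A dimmer second probe set of Lgr4 differed by -0.52 and passed without the block (adjusted p = 0.0492 over all probe sets), while the other probe sets of Msi1 differed by 0.71 and -0.02. With the block 5 stem cell genes rose and 1 fell. The 2 Mex3a-negative arrays differed here: without replicate 1 the list median was -0.17, and without replicate 2 it was 0.50 with 5 genes called higher. None of 8 reserve stem cell genes was called. Hopx, a homeodomain protein gene, had 0.48 ± 0.14 (adjusted p = 0.0932, 0.0368 with the replicate block), Krt19, a keratin gene, -0.27 ± 0.13 (0.34, 0.0096 with the block) and the Polycomb gene Bmi1 0.28 ± 0.15. Of 26 enterocyte genes limma called 0, and 1 with the replicate block, Slc6a19 (1.48 ± 0.74, adjusted p = 0.0336), with a median of 0.05 that was -0.77 in replicate 1 and 0.90 in replicate 2. Without the Mex3a-negative array of replicate 1, 8 enterocyte genes were called higher, and without that of replicate 2, 3 were called lower.

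**Figure D3:**
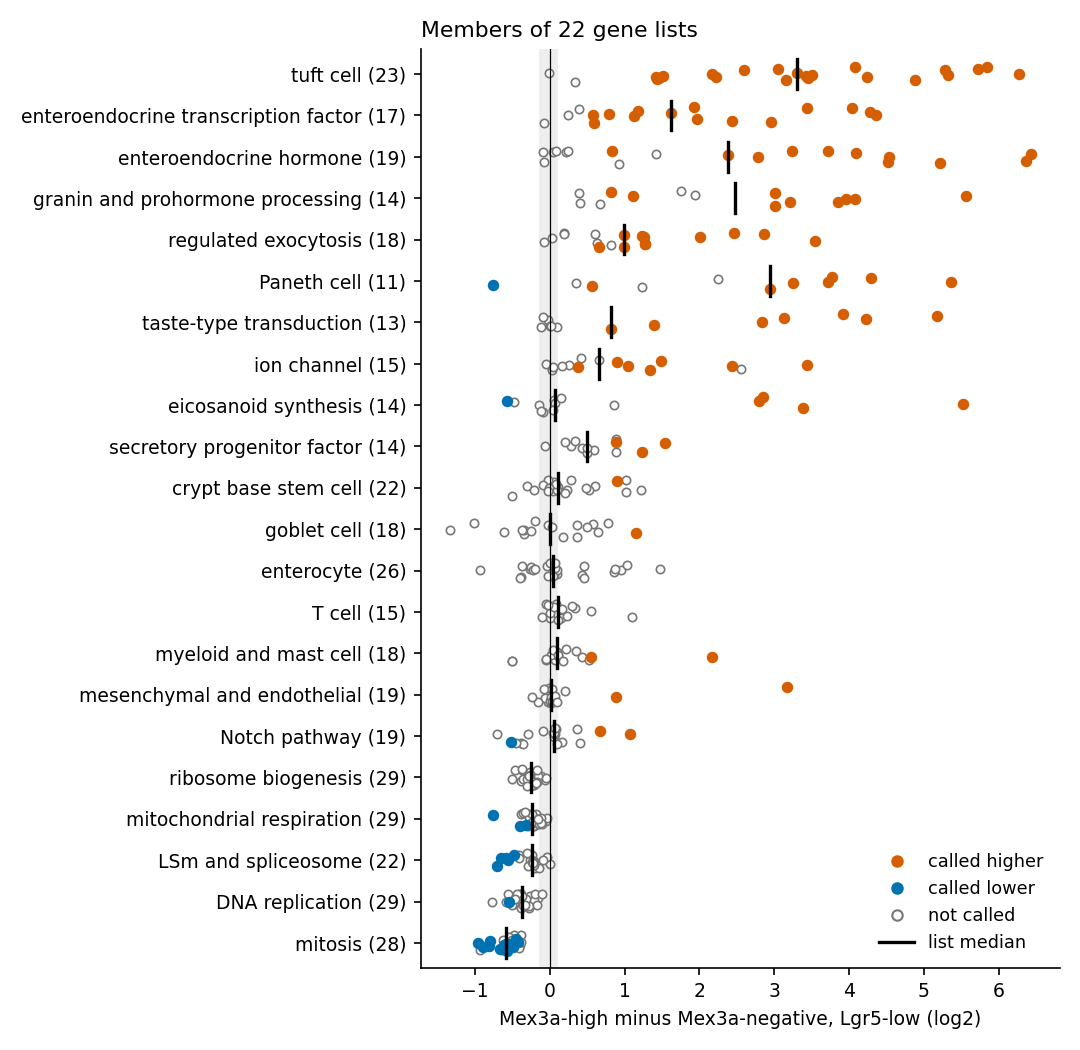
Difference of each measured member (x axis, log2) in 22 gene lists, with the number measured in brackets. Filled orange points were called higher and filled blue points called lower in Mex3a-high cells, open points were not called, black bars are list medians and the grey band is the interquartile range of all genes, -0.14 to 0.09. The tuft cell median is 3.31, the goblet cell median 0.00 and the mitosis median -0.58.

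Cell division genes were lower in Mex3a-high cells by small and even amounts. Of 28 measured mitosis genes 13 fell and 0 rose, all 28 differences were below 0 and the median was -0.58. Over all genes the median was -0.01, and 46.3% of differences lay above 0. Aurkb, the kinase of the chromosomal passenger complex, had 9.57 and 9.74 in Mex3a-high cells and 10.22 and 10.35 in Mex3a-negative cells. Hmmr, a spindle protein, had 6.89 and 6.93 in Mex3a-high cells and 7.88 and 7.85 in Mex3a-negative cells. The difference was -0.95 ± 0.18 (adjusted p = 0.0143), and the other probe sets of Hmmr differed by -0.62 to -0.35 and were not called. In both genes the Mex3a-high arrays lay below both Mex3a-negative arrays. Cyclin A2, Ccna2, differed by -0.42 ± 0.08, the cytokinesis gene Anln by -0.89 ± 0.18, the passenger complex gene Incenp by -0.59 ± 0.12 (its other probe sets differed by -0.34 and 0.01 and were not called) and the checkpoint kinase gene Bub1 by -0.79 ± 0.18. Cep55, which brings the abscission machinery to the midbody, had 6.10 and 6.38 in Mex3a-high cells and 7.09 and 7.56 in Mex3a-negative cells and was the one gene to fall by more than 2-fold. Aspm, a spindle pole protein, fell by 0.89, and Plk4, the kinase that starts centriole copying, by 0.88. Other probe sets of Anln (-0.15), Bub1 (-0.30), Aspm (-0.81 and -0.50) and Plk4 (-0.52) were not called. The second probe sets of Aurkb (-0.63) and Ccna2 (-0.72) were called lower. Mki67 and Top2a, the usual marks of cycling cells, had -0.45 ± 0.13 (adjusted p = 0.0894) and -0.64 ± 0.20 (adjusted p = 0.118) and were picked after their values were seen.

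The direction of the mitosis list was the same in every fit run, with 0 of 28 differences above 0, but the number of calls was not. Fits that kept the 4 arrays of the comparison, their values and probe sets, without strip as a block, estimate the same differences. Their direction could not vary. It was 23 with the replicate block, 0 with all 12 arrays, 0 on strip 3 alone and 2 with the 4 arrays of the comparison alone. Leaving out 1 array gave 0 without the Mex3a-high array of replicate 1, 1 without that of replicate 2, and 5 and 1 without Mex3a-negative replicates 1 and 2. The list median lay between -0.66 and -0.50 in all of these leave-outs. Replicate 1, with both arrays on strip 3, and replicate 2, on different strips, gave Aurkb differences of -0.65 and -0.60 and Hmmr differences of -0.99 and -0.92.

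In the DNA replication list of 29 members 1 fell, Rfc5 (-0.55 ± 0.13, adjusted p = 0.0476), a subunit of the clamp loader, 0 rose, and all 29 differences were below 0 with a median of -0.37. The share of all genes called lower was 1.23%. The replicate block called 8, and leaving out 1 array gave 0 to 6. Among lower genes outside the list, Rpa3, a subunit of the single-strand binding complex, fell by 0.88 and Dbf4, the activator of the Cdc7 kinase, by 0.85. A second probe set of Dbf4 differed by -0.12 and was not called. Without the Mex3a-negative array of replicate 2 the median of the list was -0.14 and 8 members were above 0.

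CDK inhibitors did not move together. Cdkn1c, which encodes p57, had 9.40 and 9.33 in Mex3a-high cells and 5.30 and 5.42 in Mex3a-negative cells. The difference was 4.00 ± 0.25 (adjusted p = 2.40e-05). It was the one of 16 inhibitor and antiproliferative genes to rise, against 4.06% of all genes. Cdkn1a, which encodes p21, had 11.73 and 11.58 in Mex3a-high cells and 10.45 and 8.84 in Mex3a-negative cells. Its Mex3a-negative arrays lay 1.61 apart, and the difference of 2.01 ± 0.53 was called with the replicate block (adjusted p = 0.00213) and not without it (adjusted p = 0.067). Its other probe set differed by 2.21 and passed without the block (adjusted p = 0.0191 over all probe sets). Cdkn3, a phosphatase gene that peaks in mitosis, fell (-0.77 ± 0.18, adjusted p = 0.0378). Cdkn1b, for p27, had 0.15 ± 0.15 and was picked after its values were seen. The replicate block called 3 of the 16 higher.

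**Figure D4:**
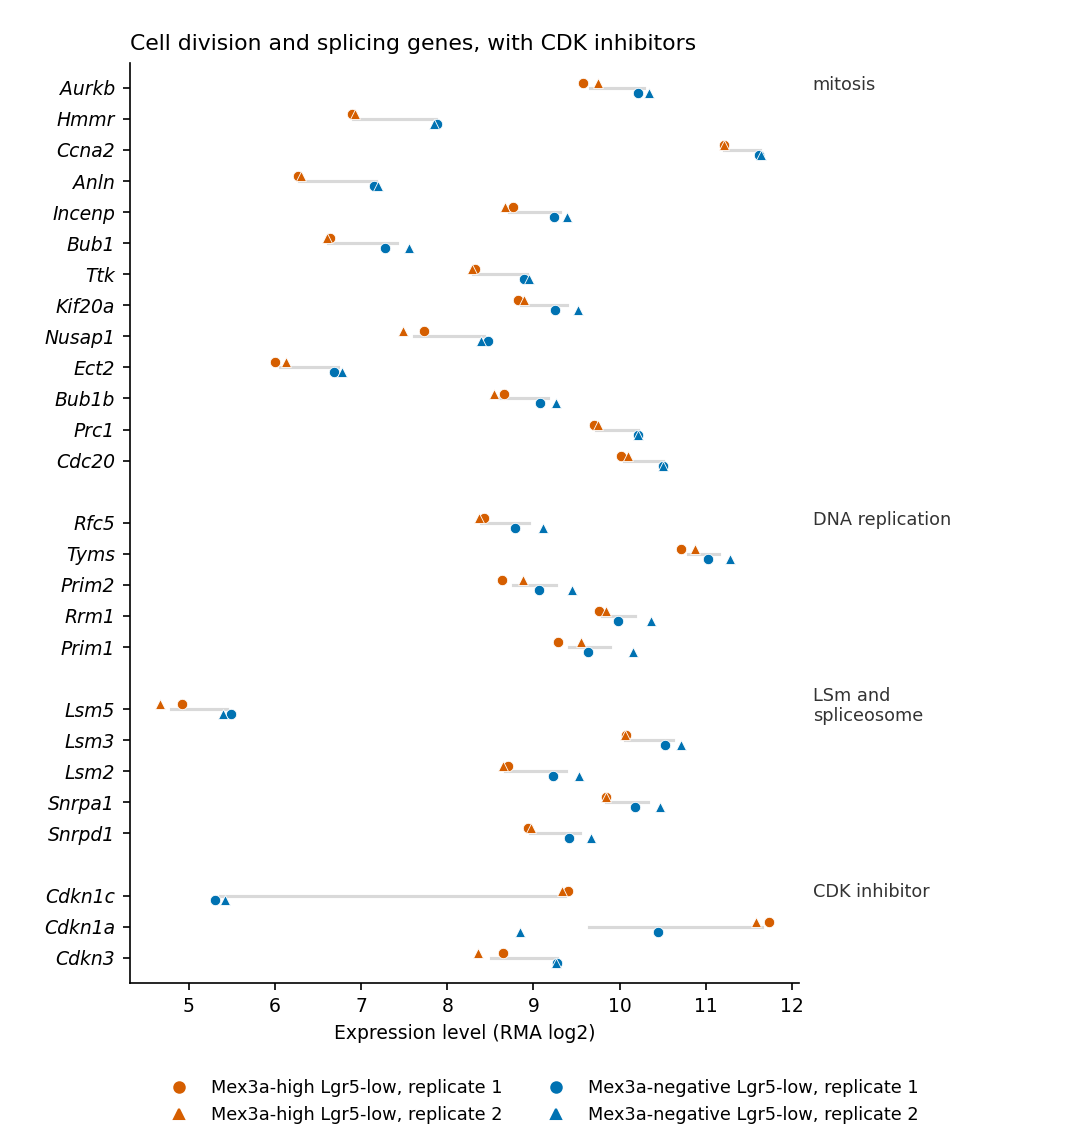
Level in each array (x axis, RMA log2) of the 13 called mitosis genes, of the DNA replication and LSm and spliceosome genes with the smallest p, and of 3 CDK inhibitor genes. Orange points are Mex3a-high and blue points Mex3a-negative Lgr5-low cells, circles replicate 1 and triangles replicate 2, and grey lines join the means. The mitosis genes lie 0.42 to 0.95 lower in Mex3a-high cells, and Cdkn1c lies 4.00 higher.

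The CCAAT box, CCAAT or its reverse ATTGG, which the NF-Y complex binds, was in 19 of 23 mitosis promoters with a window (82.6%), against 39.6% of all genes with a window. It was in 15 of 24 DNA replication promoters (62.5%), 9 of 14 enteroendocrine factor promoters (64.3%), 6 of 18 tuft cell promoters (33.3%) and 6 of 16 hormone promoters (37.5%). The element TTTGAA, the core of the cell cycle homology region, was in 8 of 23 mitosis promoters (34.8%) and 3 of 24 DNA replication promoters (12.5%), and also in 5 of 16 hormone promoters (31.2%), against 14.0% of all genes with a window. The octamer was in 0 of the 23 mitosis promoters and the PU box in 6 (26.1%). The windows of Hmmr, with 5 CCAAT boxes, and Cdc20, the activator of the anaphase complex, with 2 CCAAT boxes and 1 TTTGAA, are shown with both motifs in capitals (Hmmr at chr11:40733438-40733687, minus strand; Cdc20 at chr4:118437344-118437593, minus strand; GRCm38.p6, RefSeq, 5′ to 3′ on the gene's strand).
Hmmr: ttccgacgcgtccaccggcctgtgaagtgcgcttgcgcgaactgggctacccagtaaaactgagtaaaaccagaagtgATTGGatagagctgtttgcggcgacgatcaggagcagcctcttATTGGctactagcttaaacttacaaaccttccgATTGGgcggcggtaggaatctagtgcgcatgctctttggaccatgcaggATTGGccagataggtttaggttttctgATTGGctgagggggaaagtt
Cdc20: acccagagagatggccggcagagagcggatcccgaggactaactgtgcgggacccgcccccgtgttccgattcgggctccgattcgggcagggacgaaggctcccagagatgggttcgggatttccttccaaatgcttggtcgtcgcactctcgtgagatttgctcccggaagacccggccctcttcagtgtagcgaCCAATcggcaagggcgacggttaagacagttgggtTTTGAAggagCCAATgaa
Cdc20 had 10.01 and 10.10 in Mex3a-high cells and 10.50 and 10.50 in Mex3a-negative cells (-0.45 ± 0.11, adjusted p = 0.0485), and its promoter was picked after its values were seen. These shares were not tested.

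Other growth-related lists leaned lower with few calls, beside a share of 1.23% of all genes called lower. In the LSm and spliceosome list 5 of 22 fell and 0 rose: Lsm2 (-0.70 ± 0.14), Lsm3 (-0.55 ± 0.11) and Lsm5 (-0.65 ± 0.10), subunits of rings that cap U6 RNA or bind decaying mRNA, and the snRNP proteins Snrpa1 (-0.48 ± 0.11) and Snrpd1 (-0.58 ± 0.14), called by limma at adjusted p of 0.00611 to 0.0454. The other probe sets of Snrpa1 differed by -0.28 and -0.35 and were not called. In mitochondrial respiration 3 of 29 fell and 0 rose, namely Sdhd (-0.75 ± 0.12), Uqcrc1 (-0.32 ± 0.07) and Ndufb5 (-0.40 ± 0.10), with all 29 differences below 0 and a median of -0.23. The replicate block called 16 of the 29. With 1 array left out the LSm and spliceosome count lay between 1 and 6, with 1 without either Mex3a-high array or without Mex3a-negative replicate 2, and the respiration count between 0 and 3, with 0 without the Mex3a-high array of replicate 2. With all 12 arrays these counts were 1 and 0. None of 29 ribosome biogenesis genes was called, yet all 29 lay below 0 (median -0.25), as did all 14 cytosolic ribosomal protein genes. Over all genes 46.3% lay above 0, and the median was -0.05 in the 10282 genes kept by a filter on dim genes. The block called 2 lower in each of these lists. The 2 replicates gave ribosome biogenesis medians of -0.08 and -0.42. Without the Mex3a-negative array of replicate 2 that median was -0.05 with 8 members above 0, and without that of replicate 1 it was -0.47 with 5 called lower. In nucleotide synthesis and salvage 1 of 19 fell, the nucleobase transporter Slc23a4 (-0.87 ± 0.13), and in cholesterol synthesis 1 of 17, Dhcr7 (-0.61 ± 0.13), a reductase of the last step. With the block 5 and 4 fell in these lists and 2 of the cholesterol genes rose. Of 17 aminoacyl tRNA synthetases and 21 genes of fatty acid oxidation limma called none, and with the block 2 fell in each and 1 oxidation gene rose.

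Several lists had no calls. None of 13 intestinal identity factors, 10 MHC class II genes, 24 genes of ER folding and the unfolded protein response, or 18 immediate early and dissociation response genes was called. The replicate block called 1 lower among the identity factors, Gata4 (-0.40 ± 0.19, adjusted p = 0.0192), 1 lower among the MHC class II genes, H2-DMa (-0.51 ± 0.21, 0.018), 2 higher in the ER list, Dnajb9 (0.72 ± 0.26, 0.00937) and Herpud1 (0.63 ± 0.17, 0.00454), and 1 higher in the immediate early list, Nr4a1 (0.49 ± 0.61, 0.0498). Each SE here belongs to the fit without the block, while the adjusted p is from the fit with it. In the BMP list 2 of 20 rose, the pseudoreceptor Bambi (1.51 ± 0.13) and the ligand Bmp2 (1.15 ± 0.24), and in the claudin and keratin list 3 of 17 rose, Cldn4 (2.24 ± 0.30), Krt18 (1.39 ± 0.19) and Krt7 (0.78 ± 0.14). Krt18, a keratin that tuft cells hold in quantity, had 12.55 and 12.35 in Mex3a-high cells and 11.16 and 10.97 in Mex3a-negative cells. Of 19 genes of xenobiotic metabolism the alcohol dehydrogenase gene Adh1 rose (0.66 ± 0.16) and 0 fell, and with the block 2 rose and 3 fell. Without the block 4.06% of all genes were called higher. The block also called 3 claudin and keratin genes lower and 3 BMP genes higher.

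Markers of cells outside the epithelium were checked beside these results, because some tuft cell genes are shared with blood cells. None of 15 T cell, 8 B and plasma cell or 13 pancreatic acinar genes was called. The summed level of the T cell list was 10.00 and 10.40 (log2) in Mex3a-high arrays and 10.03 and 10.05 in Mex3a-negative arrays, and the T cell receptor gene Cd3g had 5.27 and 5.88 in Mex3a-high cells and 5.20 and 5.27 in Mex3a-negative cells. Of 9 pan-leukocyte genes 2 rose: Rac2, a GTPase gene of blood cells, with 10.41 and 9.78 in Mex3a-high cells and 6.64 and 6.68 in Mex3a-negative cells, and Ptprc, which encodes CD45, with 6.20 and 5.46 in Mex3a-high cells and 3.96 and 4.04 in Mex3a-negative cells. The summed level of that list was 10.81 and 10.32 in Mex3a-high arrays and 8.88 and 8.80 in Mex3a-negative arrays, while Laptm5 and Cd37 had differences of 0.18 ± 0.09 and 0.24 ± 0.09. Of 18 myeloid and mast cell genes 2 rose, C1qb (0.55 ± 0.10) and Lyz2 (2.16 ± 0.42), the second a lysozyme gene that Paneth cells can share. Of 19 mesenchymal and endothelial genes 2 rose, Vim, an intermediate filament gene, with 8.99 and 8.69 in Mex3a-high cells and 5.66 and 5.66 in Mex3a-negative cells, and Tek (0.89 ± 0.13). With the replicate block 1 T cell gene, Gzmb (0.54 ± 0.19, adjusted p = 0.0473), and 3 myeloid and mast cell genes were called higher, and Ctss, a cathepsin gene, lower (-0.50 ± 0.13, 0.00789). The collagen genes Col1a2 and Col3a1, named after their values were seen, had differences of 0.05 ± 0.07 and -0.03 ± 0.12. Tubb3 (1.35 ± 0.22) was the one of 10 enteric neuron and glia genes to rise and Epb42 (1.12 ± 0.14) the one of 6 red blood cell genes. The share of all genes called higher was 4.06%. RMA gives every probe set a level, so none of these markers is at 0, and the part of other cells in the changes was not tested.

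Some of the largest changes fell outside the lists. Vwa5b2 had 10.80 and 10.82 in Mex3a-high cells and 5.64 and 5.73 in Mex3a-negative cells (5.12 ± 0.21, adjusted p = 7.13e-06). Pygl, the liver-type glycogen phosphorylase, differed by 5.03 ± 0.25 and Fut2, a fucosyltransferase of secreted and surface glycans, by 4.91 ± 0.27. Reep5 (4.50 ± 0.38), which shapes the tubular ER, and Tuba1a (4.38 ± 0.34), a tubulin of neurons and other differentiated cells, were also among the 20 largest. Among the lower genes Slc1a1, a glutamate transporter, had 8.95 and 8.87 in Mex3a-high cells and 9.91 and 9.78 in Mex3a-negative cells, Slc25a13, a mitochondrial aspartate-glutamate carrier, fell by 0.87, Timm9, a chaperone of mitochondrial import, by 0.93, and Polrmt, the mitochondrial RNA polymerase, by 0.86. Mgst1, a microsomal glutathione transferase, differed by -0.88 ± 0.21 and Cenpw, a kinetochore protein, by -0.90 ± 0.15. Their second, dimmer probe sets differed by -0.06 and -0.50 and were not called, while those of Slc1a1 (-1.03) and Timm9 (-0.49) were. The 20 largest falls named by the rule lay between -1.08 (Cep55) and -0.83 (Smim31).

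The Mex3a-low Lgr5-low population lay between the other Lgr5-low populations for most called genes. Its mean was between those of Mex3a-high and Mex3a-negative cells for 653 of the 694 genes that rose and 203 of the 211 that fell, against 45.3% of all genes. The genes were chosen on 2 of the 3 means, so the count is a description. In the order negative, low, high, Dclk1 averaged 5.45, 9.03 and 11.72, Gip 6.35, 12.08 and 12.78, Neurod1 5.20, 6.48 and 8.63, and Aurkb 10.28, 10.20 and 9.66. Gip in Mex3a-low cells was thus nearer to its level in Mex3a-high cells, and Aurkb in Mex3a-low cells nearer to its level in Mex3a-negative cells. Mex3a-low against Mex3a-negative cells gave 16 calls (0.0936%) and Mex3a-high against Mex3a-low cells 420 (2.46%). These comparisons share arrays with the main one.

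The same difference was read in the Lgr5-high gate, with 1 Mex3a-high array there, replicate 2, whose spread was taken from the other populations. It was set against Mex3a-negative arrays of both replicates, so differences between replicates enter this value and the test between gates. That test also shares the Lgr5-low arrays of the main comparison, so the calls of the 2 tests are not independent. The change differed between the gates for 160 genes, 0.936% of genes tested, all more positive in the Lgr5-low gate, and 0 genes were more negative there at this threshold. With the replicate block 309 were called, 284 more positive and 25 more negative in the Lgr5-low gate. At an unadjusted p under 0.05 the count over both directions was 1589. All 160 were among the 694 genes that rose. In the Lgr5-high gate itself 3 genes were called (538 at an unadjusted p under 0.05), all higher in Mex3a-high cells: Nkx2-2 (2.16), Insm1 (2.38) and Pla2g2f (2.05).

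Tuft cell genes were well represented, with 17 of 23 called in the test between gates, and some kept a part of the change. Dclk1 differed by 6.27 between Mex3a-high and Mex3a-negative cells in the Lgr5-low gate and by 2.92 in the Lgr5-high gate (difference 3.35 ± 0.47, adjusted p = 0.0112). Bmx differed by 3.05 in the Lgr5-low and 0.11 in the Lgr5-high gate (adjusted p = 0.00142). Of 19 hormone list genes 3 were called in that test, Gip, Sst and Nts, and the list median in the Lgr5-high gate was -0.08. Gip differed by -0.48 in the Lgr5-high gate (difference between gates 6.91 ± 0.68, adjusted p = 0.00246) and Sst by 0.65 (3.89 ± 0.53, adjusted p = 0.0104). Nkx2-2 differed by 4.36 in the Lgr5-low gate and 2.16 in the Lgr5-high gate (adjusted p of the difference 0.00142), while Neurog3 differed by 1.93 in the Lgr5-low gate and 1.60 in the Lgr5-high gate with no call (adjusted p = 0.886). Chgb (3.85 in the Lgr5-low and 3.09 in the Lgr5-high gate, adjusted p of the difference 0.888) and Mmp7 (3.25 in the Lgr5-low and 2.13 in the Lgr5-high gate, adjusted p = 0.601) were likewise not called. None of the mitosis genes was called; the difference between gates for Hmmr was -0.47 ± 0.28 (adjusted p = 0.66). With all 12 arrays 68 genes were called between gates. The number was 76 and 82 without the replicate 2 and the replicate 1 array of Mex3a-negative Lgr5-high cells.

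**Figure D5:**
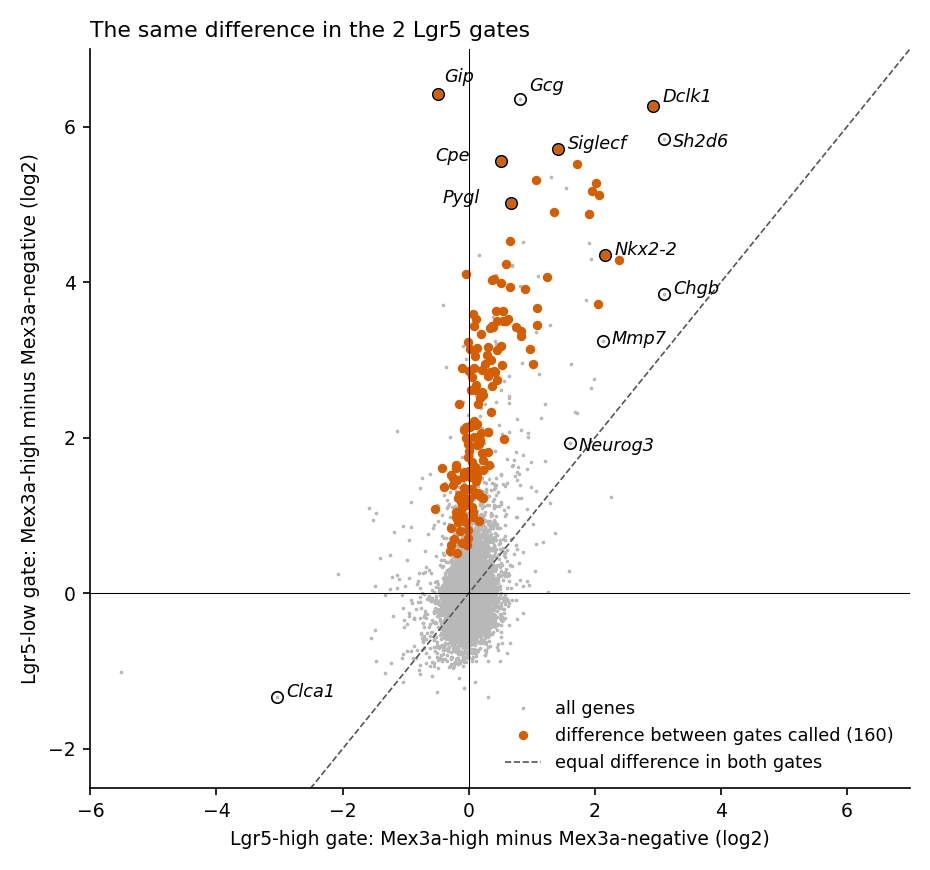
Difference between Mex3a-high and Mex3a-negative cells in the Lgr5-low gate (y axis, log2) against the same difference in the Lgr5-high gate (x axis, log2; 1 Mex3a-high array) for 17097 genes. Orange points are the 160 genes whose difference between gates was called, circles mark named genes and the dashed line is an equal difference in both gates. The called genes lie above the line, led by Gip (6.43 in the Lgr5-low and -0.48 in the Lgr5-high gate).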

How the data were processed

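Expression was measured on Affymetrix arrays in 12 samples, 2 arrays for each of 6 sorted populations. Per the submitters' processing notes the authors made the deposited log2 values with RMA; its version and options are not known from the labels, and array medians and upper ends are nearly equal across arrays. Each biological replicate, MR793 (replicate 1) or MR820 (replicate 2), was taken from the titles, and nothing in the labels says that a replicate is more than 1 animal, so p-values measure the spread between these samples. Depth does not apply to arrays; their number limits the precision.

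Of 45141 probe sets, 28898 had 1 gene symbol in the platform annotation, 551 had several and 15692 were not listed. The probe set with the highest mean over 12 arrays stood for each of 17097 genes, 7180 of which had several. In R 4.3.3, limma 3.58.1 (lmFit, eBayes with a trend) fitted 6 population means to 11 arrays, without the array that stood apart, and p-values were Benjamini-Hochberg adjusted over all 17097 genes, with a call at 0.05. The difference between Lgr5 gates is the interaction in that fit. The code was tested on simulated data.

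Replicate numbers pair the populations: deviations from the population means correlated in 10 of 10 population pairs (0.374 to 0.566, and 0.400 for the pair compared here). The comparison, the gene lists and the naming rule were chosen with earlier results of these data known. The rule names Mex3a and Lgr5, the 20 largest called differences in each direction, up to 6 members of each list with the smallest p, the 8 largest called gate differences and the members behind counts of 5 or fewer; other genes are said to have been picked after their values were seen. Summed list levels are log2 of the sum of unlogged levels. Alternatives covered the arrays in the fit, the replicate and strip as blocks, the variance model, normalization, the probe set of a gene, a filter on dim genes and each array left out. Blocked values stand beside results whose call they change or whose count they move by more than 1.5 times. The SE printed beside a blocked adjusted p is that of the fit without the block. Promoter sequences are from RefSeq (GRCm38.p6).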

Additional observations from a re-analysis of the deposited data

Results flagged for a closer look

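The change between Mex3a-high and Mex3a-negative cells differed between the Lgr5 gates for 160 genes by the interaction test of limma, all more positive in the Lgr5-low gate. With the replicate as a block 309 were called, 25 of them more negative in the Lgr5-low gate. The 8 largest gave these values. The difference between gates (log2, Lgr5-low minus Lgr5-high) was 6.91 ± 0.68 for Gip (adjusted p = 0.00246) and 5.05 ± 0.91 for Cpe (0.0415). For genes of the tuft cell list it was 4.30 ± 0.77 for Siglecf and 4.25 ± 0.73 for Spib, and for Alox5ap of the eicosanoid list 3.81 ± 0.49. It was 3.89 ± 0.53 for Sst (0.0104), 4.34 ± 0.40 for Pygl (0.00185) and 4.14 ± 0.60 for Basp1 (0.0129), a membrane protein gene of neurons. Like every gene called higher in the main comparison, each had both Mex3a-high arrays above both Mex3a-negative arrays in the Lgr5-low gate. The Lgr5-high gate had 1 Mex3a-high array, of replicate 2, set against Mex3a-negative arrays of both replicates.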

How the results depend on the processing

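Of 905 genes called between Mex3a-high and Mex3a-negative Lgr5-low cells, the number became 2033 with the replicate block, 1838 with the replicate block in the 6 Lgr5-low arrays (added after the data were seen), 533 in the 6 Lgr5-low arrays alone, 351 in the 4 arrays of the comparison (345 higher, 6 lower), 295 with all 12 arrays and 275 on strip 3 alone (also added; all higher). With 1 array left out it lay between 484 and 901, the lowest without the Mex3a-high Lgr5-low array of replicate 1 and 595 without that of replicate 2. With strip as a block, no trend, robust eBayes, repeated quantile normalization, common centring, another choice of probe set, the filter on dim genes or replicate and strip as blocks it lay between 759 and 1236. The 160 genes that differed between gates became 309 with the replicate block (25 more negative in the Lgr5-low gate), 297 with replicate and strip as blocks (7 more negative), 84 with the filter on dim genes, which tested 10282 genes, and 68 with all 12 arrays. With 1 array left out that number lay between 76 and 204, with the lowest without the Mex3a-negative Lgr5-high array of replicate 2. It could not be computed once the remaining Mex3a-high Lgr5-high array (replicate 2) was left out. A population left with 1 array was assumed to vary like the others. Of 279 named genes 123 were called. Of these, 77 kept the call with each array left out and 0 changed sign in any setting run. The arrays of called genes did not overlap between the groups, so leaving out 1 array could not change a sign. The replicate block changed no call other than those given beside the results and among further members of the lists counted there. Levels of dim genes such as Mex3a lie near the lower end of the array scale, and no detection value was used here.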

Other observations

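Genes outside the lists were looked at after their values were seen, and are given as values. Some interferon-induced genes rose in Mex3a-high cells and others did not. Irf7, a regulator of interferon genes, had levels of 8.62 and 8.49 in Mex3a-high cells and 7.19 and 6.95 in Mex3a-negative cells, and Usp18, which dampens interferon signalling, differed by 2.00 ± 0.18. Oas2 (1.35 ± 0.12), Isg20 (1.52 ± 0.19) and Rtp4 (1.27 ± 0.26) rose too, while Ifit1 (0.35 ± 0.13, adjusted p = 0.183) and Ifi27l2a (0.17 ± 0.18) were not called. Genes of sugar handling differed in direction. Hexokinase 1, Hk1, rose by 3.17 ± 0.34 and Pfkfb3, an activator of glycolysis, by 2.16 ± 0.15, glycogen synthase Gys1 had 0.16 ± 0.14, and Ugp2, which makes the glucose donor for glycogen, fell (-0.52 ± 0.12).

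Receptors and lipid kinase genes were also among the genes that rose. Ret, a receptor tyrosine kinase for glial factors, differed by 2.07 ± 0.10 and its coreceptor gene Gfra3 by 3.15 ± 0.15. Kit, a receptor for stem cell factor, rose (2.02 ± 0.20) and Kitl, its ligand, fell (-0.82 ± 0.18). Pik3cg (3.50 ± 0.24) and Pik3r5 (3.19 ± 0.16), the catalytic and regulatory subunits of phosphoinositide 3-kinase gamma, rose with the tyrosine kinase gene Fes (3.53 ± 0.22) and Plek (2.86 ± 0.22), a pleckstrin gene of blood cells.

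Gene families picked by symbol leaned lower. Of 73 mitochondrial ribosomal protein genes 6 fell and 0 rose, 2 lay above 0 and the median was -0.32. Of 22 genes of mitochondrial import translocases 4 fell and 0 rose, with a median of -0.31. Of 21 centromere protein genes 2 fell and 0 rose, with a median of -0.37. Over all genes 1.23% were called lower and 4.06% higher, 46.3% lay above 0 and the median was -0.01. Whether these families differ from other genes was not tested.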
